A study of Mus musculus with 2 samples.

Results

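Reverted cells that had been expanded in naive medium were compared, gene by gene, with the primed cells they came from. Of 17720 single cells in the study, 926 were reverted cells and 350 were primed cells. The reverted cells were the cells tagged d16+10p in which Dppa5a, a pluripotency gene of the KH domain family, took at least 1000 of 1000000 reads (1000 CPM), and they made up 80.5% of the 1151 cells with that tag. The primed cells were the 350 of 1826 primed-tagged cells with the highest mean, over Pim2, L1td1, Lin28a, Utf1, Enpp3 and Slc7a3, of the natural log of 1 plus reads per 10000. These 7 genes chose the cells and are given only as a description. Dppa5a had a median of 3080 CPM in reverted cells and 68.8 in primed cells, of which 83 had no Dppa5a read and 8 lay at or above the limit. The reverted cells just inside the limit had 1018, 1033 and 1034 CPM, and the cells just outside had 958, 964 and 965. The primed score was 0.543 at the last cell inside and 0.542 at the first cell outside.

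The study asked how activation of the kinase AMPK returns primed mouse cells to a naive state. Primed cells were the epiblast stem cell line Oct4GIP, which carries a GFP and puromycin resistance transgene driven by regulatory sequence of Oct4, kept with FGF2 and Activin A. For reversion, Oct4GIP cells were plated on mouse embryonic fibroblasts and given AICAR, which activates AMPK, together with LIF (leukemia inhibitory factor) over 16 days (d16). The reverted cells (d16+10p) were then grown for 10 passages in 2iL, a medium with LIF and inhibitors of MEK and GSK3. Reverted and primed cells therefore shared a line and a transgene but differed in treatment, medium and passage, and these cannot be told apart. For comparison stand 570 naive embryonic stem cells of another line, Rex1-GFP, grown in 2iL, and 1278 d16 cells, in both cases cells with Dppa5a at 1000 CPM or more. The labels give the strain as 129/Ola. The study lists both lines as XX, but in the cells tagged as naive the Y-linked genes Ddx3y and Eif2s3y were at 68.3 and 36.3 CPM, against 4.99 and 2.95 CPM in primed cells, which goes against that entry for the naive-tagged cells. "Naive" below means the cells with that tag. The 5 populations, with d8 as the fifth, were tagged through antibodies against CD9 and CD63 and pooled in 1 library, so each was 1 sample without a replicate. The methods give 500 primed, 500 naive, 9000 d8, 9000 d16 and 1000 d16+10p cells collected. In the data, 1826, 801, 9627, 4315 and 1151 cells carried these tags, in the same order. A tag may thus not always give the origin of a cell, which was not tested.

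Naive pluripotency is the state of the preimplantation epiblast, and primed pluripotency that of the epiblast after implantation. Both states use Oct4 (Pou5f1) and Sox2. Naive cells depend on LIF and STAT3 and use factors such as Esrrb, Tfcp2l1, Klf2 and Klf4, while primed cells depend on FGF and Activin and already express some early lineage genes.

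Depth was alike in both groups. Reverted cells had a median of 24034 reads and 5301 detected genes, and primed cells 23823 reads and 5217 genes, and the summed reads were 23273088 and 8819680. The mitochondrial share was 6.75% and 6.39%. Markers of other cell types had like sums in reverted and primed cells, with 8 fibroblast genes at 559 and 523 CPM, 5 macrophage genes at 438 and 378 and 4 smooth muscle genes at 194 and 212. The 1476 other primed-tagged cells had a fibroblast sum of 2421 CPM. The 5 neural genes summed to 137 CPM in reverted and 63.5 in primed cells, which came from Tubb3 at 115 and 28.1 CPM, while Sox1 was at 2.15 and 12.9 CPM. No barcode occurred under more than 1 tag.

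Levels below are reads summed over the cells of a group, in CPM, which stands for counts per 1000000 reads. A ratio is the log2 of CPM + 1 in reverted over primed cells, with a 95% interval for counting error. With 1 sample per group no test was possible, and "2-fold higher" or "lower" describes these cells only. Of 3783 measured genes, those at 50 CPM or more in 1 of the groups and with 100 or more reads in both together, 244 were at least 2-fold higher in reverted cells (6.45%) and 132 at least 2-fold lower (3.49%), 9.94% in either direction. The median ratio was -0.04. Among measured genes, 477 reached 50 CPM in reverted cells alone and 429 in primed cells alone, so counts over measured members of a list below are descriptions and not support for a direction. Counts given without the limit on level include genes with few reads. They have no share over all genes beside them and are descriptions too.

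The gene highest in reverted against primed cells was Nr0b1 (ENSMUSG00000025056.4, chromosome X, 86191764 to 86195947, GRCm38), which encodes the orphan nuclear receptor DAX1 of the naive network. It had 1484 reads in reverted cells and 11 in primed cells, or 63.8 and 1.25 CPM. The log2 ratio was 4.85 (4.32 to 5.32), and naive cells had 44.1 CPM. Next among genes of known role were Cyp1a1, a cytochrome P450 induced by the aryl hydrocarbon receptor, with 114 against 3.97 CPM (4.53), and Tdh (chromosome 14, 63492347 to 63509092), the threonine dehydrogenase that feeds glycine to one-carbon metabolism, with 319 against 13.7 CPM (4.44, 4.20 to 4.69). Tdh was at 335 CPM and Cyp1a1 at 112 CPM in naive cells. Cyp1a1 was at 4.81 CPM in d16 cells, close to the level in primed cells.

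The other genes among the 15 highest were Gm48244 (4.62), the phospholipase Pla2g1b (4.43), the RNase P subunit Rpp25 (4.39), the naive noncoding RNA Lncenc1 (4.39), Zfp600 (4.36), the water channel Aqp3 (4.36), Rps4l (4.34), the muscle myosin light chain Mylpf (4.26), Fam25c (4.26), Dppa3 (4.25), the autophagy receptor Calcoco2 (4.25) and Rex2 (4.16). Rps4l is a close copy of Rps4x, and reads of near-identical copies may be shared between them. In naive cells these 12 genes lay between 32.1 CPM (Dppa3) and 503 CPM (Rps4l).

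The gene lowest in reverted against primed cells was Wnt8a, a Wnt ligand of the gastrulating embryo. It had 1.85 CPM in reverted cells, 52.3 in primed cells and 1.69 in naive cells, a log2 ratio of -4.23 (-4.54 to -3.90). Kcnj3, a potassium channel, had 1.85 against 50.8 CPM (-4.18), and Fgf8 (chromosome 19, 45736798 to 45742915), an FGF ligand of the primitive streak, 3.82 against 57.9 CPM (-3.61, -3.89 to -3.34). Fst, which encodes the activin antagonist follistatin, had 20.2 against 212 CPM (-3.33), and Lefty1, a Nodal inhibitor, 81.7 against 624 CPM (-2.92). The adenosine kinase gene Adk (chromosome 14, 21052574 to 21448569), whose enzyme phosphorylates adenosine and also AICAR, had 35.0 CPM in reverted cells, 218 in primed cells, 36.1 in naive cells and 34.6 in d16 cells, a ratio of -2.60 (-2.72 to -2.49).

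The rest of the 15 lowest were 2 carbonic anhydrases, Car14 (-3.78) and Car2 (-3.08), Tdrkh (-3.54), a Tudor protein of the piRNA pathway, the Wnt effector Lef1 (-3.14), Pkdcc (-3.02), the amino acid transporter subunit Slc7a7 (-2.93), the POU factor Pou3f1 (-2.80), Mup6 (-2.68) and Plod2, a collagen lysyl hydroxylase (-2.60). Mup6 belongs to a family of near-identical genes, so its reads are uncertain. Reverted cells differed from naive cells in these 9 genes by less than 1 on the log2 scale.

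**Figure D1:**
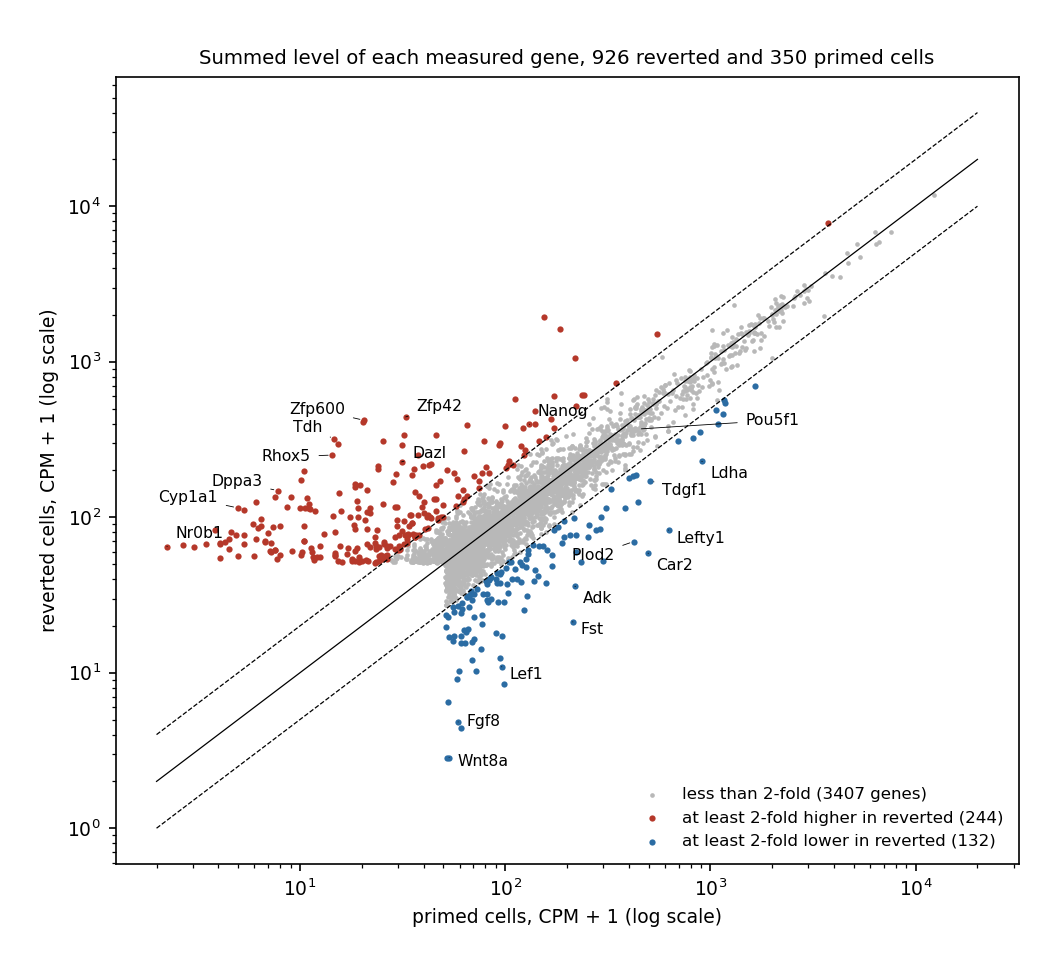
Summed level of the 3783 measured genes, with CPM + 1 in primed cells on the x axis and in reverted cells on the y axis, both on log scales. The solid line marks equal levels and the dashed lines 2-fold, with 244 genes above in red and 132 below in blue. Nr0b1, Tdh and Zfp600 lie far above the line, Wnt8a and Fgf8 far below it, and Pou5f1 near it.

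The factors shared by both states differed little or in different directions. Pou5f1 was at 368 CPM in reverted and 439 in primed cells, a ratio of -0.25 (-0.31 to -0.20), and Sox2 at 437 and 266 CPM (0.71, 0.65 to 0.78). Nanog (chromosome 6, 122707489 to 122714633), which is used in both states, was at 394 against 130 CPM (1.59, 1.50 to 1.68) and at 496 CPM in naive cells. Tdgf1, the Nodal coreceptor Cripto, was lower, at 171 against 505 CPM (-1.56). Dppa2, a chromatin factor of pluripotent and germ cells, was at 86.3 against 7.03 CPM (3.44). Of the 10 core factors 8 were measured, 2 at least 2-fold higher and 1 at least 2-fold lower.

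The naive transcription factors and markers were higher in reverted cells. Of the 20 genes of the list 15 were measured, all 15 at least 2-fold higher, with a median of 3.23. Of these, 14 reached 50 CPM in reverted cells alone. Without the limit on level, 19 of 20 were at least 2-fold higher and 1 was lower, Gbx2, at 8.89 against 21.3 CPM (-1.17). Esrrb, the nuclear receptor that works with Oct4 and Sox2, was at 134 against 8.05 CPM (3.89, 3.59 to 4.21), Tfcp2l1, a target of STAT3, at 115 against 7.60 CPM (3.76), and Nr5a2, a nuclear receptor that binds Oct4 regulatory DNA, at 61.3 against 3.52 CPM (3.79). Zfp42, the zinc finger gene known as Rex1, was at 441 against 31.8 CPM (3.75), and Klf4 had the lowest ratio of the measured list, with 207 against 100.2 CPM (1.04, 0.93 to 1.14).

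In naive cells the same 15 genes had a median log2 ratio of 3.20 over the same primed cells. Most of them were close in reverted and naive cells: Esrrb was at 134 and 147 CPM, Klf5, a Krüppel-like factor, at 144 and 142 CPM, and Fbxo15, an F-box gene of pluripotent cells, at 143 and 141 CPM. Dppa3, Zfp42 and Klf4 stood apart. Dppa3, a maternal factor that protects against DNA demethylation, was at 147 CPM in reverted and 32.1 CPM in naive cells, Zfp42 at 441 and 668 CPM, and Klf4 at 207 and 350 CPM. The reverted over naive ratio was 2.16 for Dppa3 and -0.60 (-0.64 to -0.56) for Zfp42, and the lines differ in genotype.

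The start regions of Nanog and Zfp42 are shown because both genes carry, in the 300 bases around the start, the letters TTTGCAT, part of the octamer that POU factors such as Oct4 recognize, while their levels in primed cells differed. Of 32851 RefSeq start windows of this length, 4.63% hold TTTGCAT on either strand. Both sequences are RefSeq, build GRCm38.p6, from 250 bases before the start to 50 after it, printed 5′ to 3′ on the strand of the gene, with these letters in capitals. Nanog lies at chr6:122707239-122707538 on the plus strand and Zfp42 at chr8:43306960-43307259 on the minus strand.
Nanog: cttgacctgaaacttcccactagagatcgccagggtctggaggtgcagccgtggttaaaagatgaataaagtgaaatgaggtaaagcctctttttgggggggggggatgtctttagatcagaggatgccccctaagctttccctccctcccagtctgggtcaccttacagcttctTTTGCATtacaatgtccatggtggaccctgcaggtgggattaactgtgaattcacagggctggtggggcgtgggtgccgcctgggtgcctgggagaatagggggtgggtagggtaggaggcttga
Zfp42: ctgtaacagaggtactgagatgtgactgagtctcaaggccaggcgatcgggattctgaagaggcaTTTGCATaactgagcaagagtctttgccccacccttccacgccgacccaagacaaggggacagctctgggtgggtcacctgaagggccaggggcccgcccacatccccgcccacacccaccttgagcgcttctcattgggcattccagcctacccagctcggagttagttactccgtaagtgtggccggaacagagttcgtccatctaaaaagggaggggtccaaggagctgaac
A match is a description of these letters and not a measured binding site.

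Genes of the germ line and meiosis were also higher. Of 30 genes 6 were measured, all 6 at least 2-fold higher and all through the level in reverted cells alone, with a median of 2.84. Without the limit on level, 25 of 30 were at least 2-fold higher and 0 at least 2-fold lower. Some of these genes had few reads, such as Taf7l at 2.36 against 0.113 CPM. Rhox5, a homeobox gene of the X chromosome, was at 250 against 13.4 CPM (4.13), and Ooep, an oocyte gene, at 68.6 against 3.29 CPM (4.02). Dazl, an RNA-binding protein of germ cells, was at 226 against 30.3 CPM (2.86, 2.69 to 3.04), Stra8, a gene for entry into meiosis, at 127 against 18.0 CPM (2.75, 2.53 to 2.97), and the germ cell factor Tfap2c at 55.8 against 7.03 CPM (2.82). Of the genes under the limit, Hormad1, a meiotic axis gene, was at 47.8 against 4.08 CPM and Ddx4, the germ cell helicase Vasa, at 15.3 against 2.04 CPM.

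Germ line genes were not all at the same level in reverted and naive cells. Stra8 was at 127 CPM in reverted and 29.9 in naive cells and Rhox5 at 250 and 121 CPM, while Dazl was at 226 and 174 CPM and Kit, the receptor for stem cell factor, at 79.9 and 80.0 CPM. In d16 cells, before expansion, Dazl was at 900.2 CPM and Stra8 at 331 CPM, above both. These ratios over primed cells share the same primed group.

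The start region of Dazl is shown for its CG dinucleotides, the substrate of DNA methylation. It holds 28 CG in 300 bases, against a median of 7 over the 32851 windows, of which 14.2% hold 28 or more. Methylation was not measured. The sequence is RefSeq, GRCm38.p6, chr17:50293571-50293870 on the minus strand, printed 5′ to 3′ with each CG in capitals.
Dazl: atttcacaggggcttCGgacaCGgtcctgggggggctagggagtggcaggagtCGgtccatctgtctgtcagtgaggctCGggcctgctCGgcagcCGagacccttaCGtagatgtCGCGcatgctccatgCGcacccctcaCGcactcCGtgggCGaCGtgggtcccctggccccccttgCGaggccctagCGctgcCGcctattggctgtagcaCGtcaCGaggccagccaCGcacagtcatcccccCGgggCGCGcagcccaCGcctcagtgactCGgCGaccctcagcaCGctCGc

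Many genes of a zinc finger block on chromosome 4 were higher in reverted cells. The block runs from 145446740 to 147947314 (GRCm38) and holds many neighboring genes of the KRAB zinc finger family, whose members bind repeats and silence them. Its bounds and its measured genes were taken from genes at 10 CPM or more in reverted cells, so genes under that level there could not enter. Of these 15 measured genes, 14 were at least 2-fold higher and 0 at least 2-fold lower, and the median was 3.53. These 14 reached 50 CPM in reverted cells alone. Without the limit on level, 27 of the 86 genes listed within the block were at least 2-fold higher and 1 at least 2-fold lower, with a median of 0.36, and 48 of the 86 were under 10 CPM in both groups. The exception among the 15 was Gm13237, a processed pseudogene, at 62.2 against 71.0 CPM (-0.19). Across chromosome 4, 28 of 240 measured genes were at least 2-fold higher (11.7%, against 6.45% of all measured genes). Of these 28 genes, 14 were the genes of the block, so this share is not separate from the block. The block was noticed in the data, through Zfp600 and Rex2 among the highest genes.

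Zfp600 was at 419 CPM in reverted, 19.5 in primed, 179 in naive and 268 in d16 cells (4.36, 4.15 to 4.57). Rex2, a different gene from Rex1, was at 135, 6.58, 58.7 and 89.9 CPM in the same order (4.16), Zfp980 at 172, 9.07, 79.6 and 118 CPM (4.1), and Zfp990 at 307, 24.5, 161 and 220 CPM (3.59). All 4 genes were highest in reverted cells, next in d16 cells, then in naive cells and lowest in primed cells. The reverted over naive log2 ratio was 1.23 for Zfp600 and 1.19 for Rex2.

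The starts of Zfp600 and Rex2 are shown because they are almost the same sequence. Of each window, 250 bases lie before the start. Transcript sequences were not compared, and whether reads of these genes can be told apart was not tested. Their windows share 285 of 300 bases without a break, in capitals below. Over the 66 pairs of the 12 measured genes of the block with a RefSeq window, the longest shared run had a median of 23 bases. Zfp600 lies at chr4:146156577-146156876 and Rex2 at chr4:147021600-147021899, both on the plus strand, GRCm38.p6.
Zfp600: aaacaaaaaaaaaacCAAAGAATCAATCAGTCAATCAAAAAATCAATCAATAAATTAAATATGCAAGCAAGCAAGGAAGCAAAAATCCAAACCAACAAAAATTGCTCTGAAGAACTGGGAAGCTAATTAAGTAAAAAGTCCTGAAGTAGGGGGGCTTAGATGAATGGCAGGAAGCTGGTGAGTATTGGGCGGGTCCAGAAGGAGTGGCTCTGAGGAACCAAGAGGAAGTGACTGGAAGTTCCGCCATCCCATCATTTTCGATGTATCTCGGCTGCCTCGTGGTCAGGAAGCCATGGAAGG
Rex2: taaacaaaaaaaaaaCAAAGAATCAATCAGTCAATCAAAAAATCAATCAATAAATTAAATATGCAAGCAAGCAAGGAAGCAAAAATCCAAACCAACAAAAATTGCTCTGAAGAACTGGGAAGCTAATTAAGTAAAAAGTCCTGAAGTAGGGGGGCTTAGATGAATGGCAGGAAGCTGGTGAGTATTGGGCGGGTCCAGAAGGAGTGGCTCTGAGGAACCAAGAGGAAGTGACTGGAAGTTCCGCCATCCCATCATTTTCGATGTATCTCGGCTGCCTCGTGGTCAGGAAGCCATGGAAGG

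Genes of the primed and formative epiblast were lower in reverted cells. Of 29 genes, 19 were measured, 12 at least 2-fold lower and 0 at least 2-fold higher, with a median of -1.53. Of these 19, 11 reached 50 CPM in primed cells alone. Without the limit on level, 17 of 29 were at least 2-fold lower and 1 higher, Cldn3, at 2.58 against 0.567 CPM. Pou3f1 (Oct6), a POU factor of the epiblast after implantation, was at 9.28 against 70.8 CPM (-2.80, -3.01 to -2.59), and Fgf5, the classical marker of the same stage, at 14.6 against 62.9 CPM (-2.03). The de novo DNA methyltransferase gene Dnmt3b was at 67.6 against 189 CPM (-1.47).

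Some members of the primed list were at like levels in both groups. The SoxC factor Sox4 was at 127 against 166 CPM (-0.38), Zic5 at 77.5 against 68.9 CPM (0.17) and the keratin Krt8 at 243 against 215 CPM (0.18). Otx2, a homeobox factor of primed cells, was below the limit on level at 15.8 against 19.5 CPM (-0.29). In naive cells the measured list had a median of -2.03 over the same primed cells, and Dnmt3b was at 30.8 CPM. Of the early lineage genes, 2 of 20 were measured, 1 of them through the level in primed cells alone. Without the limit on level, 1 of 20 was at least 2-fold higher, Cdx1, at 10.5 against 1.25 CPM (2.36). In this list 5 were at least 2-fold lower, and the median was -0.19. T (Brachyury), the mesoderm factor, was at 16.1 against 95.1 CPM (-2.49), and Nes, a neural progenitor filament, at 59.1 against 116 CPM (-0.97).

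Among FGF genes, the ligands differed in direction. Fgf4, the autocrine FGF ligand of naive cells, was higher, at 53 against 6.69 CPM (2.81), and Fgf5 and Fgf8 were lower. Fgf15, under the limit on level, was also lower, at 3.22 against 45.9 CPM (-3.47). The targets and inhibitors of ERK signaling that were at least 2-fold lower were Dusp6, an ERK phosphatase, at 27.3 against 98 CPM (-1.80, -1.95 to -1.66), Spry2, at 45.3 against 111 CPM (-1.27), and Il17rd (Sef), at 19.7 against 76.1 CPM (-1.90). The immediate early genes Egr1 and Fos had ratios of 0.87 and -0.28. Of 11 measured genes of this list 1 was at least 2-fold higher and 5 lower, with a median of -0.78. Without the limit on level, 1 of 26 was at least 2-fold higher and 6 lower, with a median of -0.26. The 2iL medium of the reverted cells contains a MEK inhibitor and the primed medium contains FGF2. The part of the media in these levels was not tested.

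Nodal, a TGF-beta ligand, was at a ratio of -0.26. Lefty1, Fst and Tdgf1 were lower, as given above, whereas the Nodal inhibitor Lefty2, under the limit on level, was at 39.0 against 23 CPM (0.74, 0.52 to 0.95). Gdf3, a related ligand of naive cells, was at 75.5 against 4.31 CPM (3.85). Of 9 measured genes of the Nodal and activin list 1 was at least 2-fold higher and 3 lower. Without the limit on level, 2 of its 19 genes were at least 2-fold higher and 3 lower. Of 6 measured Wnt genes 1 was higher and 3 lower, and 3 of the 6 reached 50 CPM in primed cells alone. Without the limit on level, 3 of 27 Wnt genes were at least 2-fold higher and 5 lower, with a median of -0.17. Lef1 was at 9.93 CPM in reverted, 95 in primed and 43.9 in d16 cells, and Tcf7l1 (TCF3), a repressor of Wnt targets, at 103 against 33.6 CPM (1.59). The beta-catenin gene Ctnnb1 was at 372 against 453 CPM (-0.28).

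In the LIF pathway, the receptor-to-nucleus factor Stat3 was at 66.0 against 34.8 CPM (0.90, 0.73 to 1.08) and its target kinase Pim1 at 121 against 72.7 CPM (0.72), both below 2-fold. The Janus kinase gene Jak1 had a ratio of 0.06. Of 7 measured LIF and STAT3 genes, 2 were at least 2-fold higher, Tfcp2l1 and Klf4, and 0 lower. Over all 17 genes of this list, 3 were at least 2-fold higher and 1 lower, Gbx2 (-1.17). Of 19 genes of AMPK and p38 signaling only 2 were measured, Map3k7 (0.47) and Cab39 (-0.15). Without the limit on level, 1 was at least 2-fold higher, the p38 kinase kinase gene Map2k6, at 7.39 against 2.49 CPM (1.26), and 2 lower, the p38 genes Mapk11, at 1.03 against 5.44 CPM (-1.67), and Mapk12, at 4.73 against 15.3 CPM (-1.51). The catalytic subunit gene Prkaa1 was at 21.3 against 19.6 CPM and the upstream kinase gene Stk11 (LKB1) at 38.0 against 44.6 CPM, both under the limit on level.

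Of 10 measured genes of DNA methylation, 1 was at least 2-fold higher and 2 lower. Tet1, an enzyme that oxidizes methylcytosine, was at 170 CPM in reverted, 47.3 in primed and 80.5 in naive cells (1.82, 1.68 to 1.97). Tdg, the glycosylase that removes the oxidized base, was at 38.8 against 106 CPM (-1.43). The maintenance genes Dnmt1 and Uhrf1 had ratios of 0.17 and 0.49. Of 20 measured imprinted genes, 3 were at least 2-fold higher and 6 lower. The amino acid transporter Slc38a4 was at 55.1 against 4.99 CPM (3.23) and Jade1, part of a histone acetyltransferase complex, at 392 against 64.2 CPM (2.59), whereas Phlda2, a growth restrictor of the placenta, was at 9.28 against 58.9 CPM (-2.54), the growth factor adaptor Grb10 at 58.7 against 220 CPM (-1.89) and Snrpn at 73.7 against 252 CPM (-1.76). Allele-specific expression cannot be read from these sums.

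The 134 measured genes of the X chromosome had a median of -0.117, against -0.037 over 3585 autosomal genes, a difference of -0.080. Of the X-linked genes 13 were at least 2-fold lower and 7 higher, and of the autosomal genes 117 and 231. Xist, the RNA of the inactive X, was at 84.8 against 103 CPM (-0.27), and its neighbor Ftx at 106 against 188 CPM (-0.82). Xist was also at 71.4 CPM in naive cells, which had Y-linked reads, and at 287 CPM in the other primed-tagged cells. Whether the Xist reads of reverted and primed cells came from an inactive X of these cells was not tested.

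Among metabolic genes, the largest ratios belonged to single enzymes. Of 16 measured genes of threonine, glycine and one-carbon metabolism, 2 were at least 2-fold higher and 1 lower, with a median of -0.23. Beside Tdh, Amt of the glycine cleavage system was at 76.4 against 34.5 CPM (1.13), and Phgdh, the first enzyme of serine synthesis, at 65.3 against 136 CPM (-1.05). Of 18 measured glycolytic genes 2 were higher and 4 lower, with a median of -0.48. Ldha, which reduces pyruvate to lactate, was at 228 CPM in reverted, 907 in primed, 423 in naive and 1082 in d16 cells (-1.99, -2.04 to -1.94). Its counterpart Ldhb was at 298, 92.9, 119 and 217 CPM in the same order (1.67, 1.57 to 1.78).

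Pgk1 was at 322 against 825 CPM (-1.36), Tpi1 at 187 against 434 CPM (-1.21) and the liver phosphofructokinase Pfkl at 24.7 against 60.7 CPM (-1.26), while the platelet form Pfkp was at 61.1 against 22.5 CPM (1.41). Of 26 measured genes of the respiratory list 2 were at least 2-fold higher, Cox7a1, a cytochrome c oxidase subunit, at 54.6 against 10.5 CPM (2.27), and Esrrb, which the list also holds. The other measured subunits lay between Ndufb3 (-0.52) and Cox5a (0.82).

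At the cell surface, the cadherins were opposite. Cdh1 (E-cadherin) was at 185 against 34.0 CPM (2.41, 2.25 to 2.58) and Cdh2 (N-cadherin) at 28.5 against 80.7 CPM (-1.47, -1.62 to -1.32). The epithelial adhesion gene Epcam was at 36.9 against 157 CPM (-2.06), and Fn1 (fibronectin) at 606 against 241 CPM (1.33). The genes of the antigens used for tagging were also unequal, with Cd9 at 288 against 92.0 CPM (1.64) and Cd63 at 496 against 313 CPM (0.66). Whether this affected which cells were tagged was not tested. Ifitm1 and Ifitm3, interferon-induced membrane proteins also known from germ cells, were at 308 against 78.2 CPM (1.96) and 371 against 122 CPM (1.60).

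Of the remaining lists, the Myc list had 1 of 9 measured genes at least 2-fold higher, Mycn (1.39), and 1 lower, Ldha, which it shares with glycolysis. The p53 list had 1 of 12 higher, Mdm4 (1.04), and the MHC and antigen presentation list 3 of 8, H2-Q4 (1.04), Ifitm1 and Ifitm3. Without the limit on level, 3 of the 17 genes of the latter list were at least 2-fold higher and 2 lower, with a median of -0.34. The endoderm and trophoblast list had 1 of 2, Tfap2c, and none of the 5 measured Lin28 and let-7 genes, which exclude the genes that chose the cells, was 2-fold apart, with Igf2bp3 (-0.45) the lowest. The 2-cell list had 1 measured gene, Eif1a (0.42), and Zscan4c, a defining gene of 2-cell-like cells, was at 1.29 CPM in reverted, 0.454 in primed and 13 in d16 cells.

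**Figure D2:**
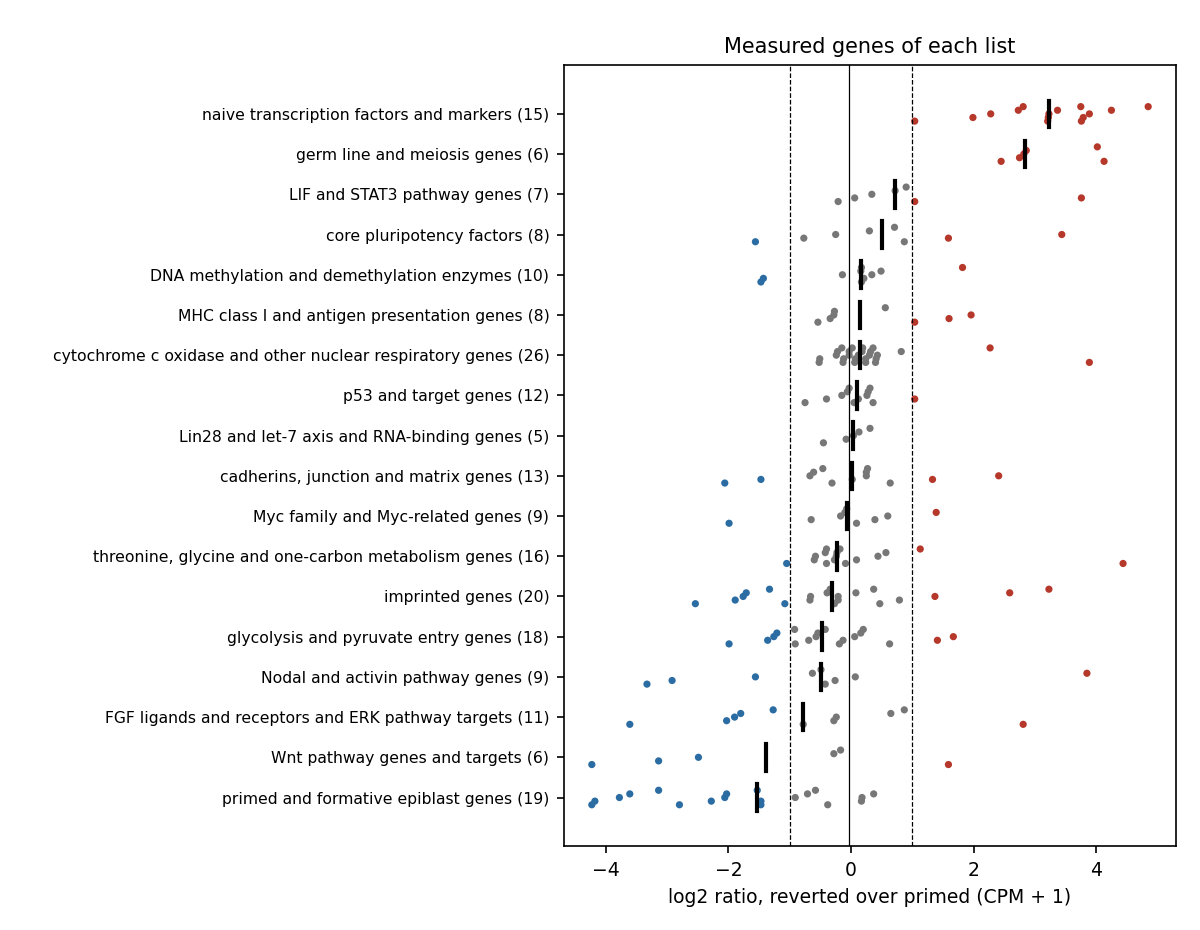
Log2 ratio of CPM + 1, reverted over primed (x axis), for the measured genes of each list with at least 5 measured genes (y axis, number in parentheses). Points are genes, red at 2-fold or more higher and blue at 2-fold or more lower, black bars are list medians, the solid line is the median of all measured genes (-0.04) and the dashed lines mark 2-fold. The naive and germ line lists lie wholly to the right of the upper dashed line, and the medians of most other lists lie near the solid line.

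A sum does not tell fewer cells with a gene from less RNA per cell, so shares of cells were compared after thinning each cell to 5000 reads, which kept 909 reverted, 343 primed and 560 naive cells. As a background, 1040 macrophage-like cells from d8, defined by at least 1 read in each of at least 4 of 5 macrophage genes, were thinned in the same way. Their median depth before thinning was 24245 reads, against 15474 over all d8 cells. The macrophage genes were counted before thinning, and reads of these genes also occurred in primed cells, with Lyz2 at 316 and Cd68 at 23.6 CPM. Whether mixed cells or cells of other types were among the macrophage-like cells was not tested. Zfp42 was found in 82.1% of reverted cells (79.4 to 84.5%), 14.0% of primed cells (10.5 to 18.1%), 91.4% of naive cells and 10.0% of background cells. Tdh was found in 72.9%, 6.71%, 77.5% and 3.37%, and Esrrb in 45.3%, 3.21%, 44.8% and 3.75%, in the same order. The primed shares of Esrrb and Nr0b1 (0.583% against a background of 1.44%) did not exceed the background. Before thinning, Zfp42 was found in 96.4% of reverted and 43.4% of primed cells.

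Dppa3 and Stra8 were found in fewer reverted cells than Zfp42. Dppa3 was found in 38.6% of reverted (35.4 to 41.9%), 4.08% of primed and 10.7% of naive cells, over a background of 1.54%, and Stra8 in 28.8%, 7.58% and 9.46%, over 5.00%. Dazl was found in 47.9% of reverted, 11.4% of primed and 37.9% of naive cells, over 9.33%. Pou5f1 was found in 79.5% of reverted and 83.1% of primed cells, with intervals that overlapped, over 17.1%.

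Of the genes lower in reverted cells, several were at or under the background share. The background cells were not free of these genes, with Lefty1 at 196 CPM and Fst at 50.7 CPM in them. Wnt8a was found in 0.99% of reverted and 17.2% of primed cells, over a background of 1.35%, and Fgf8 in 1.21% and 21.6%, over 3.08%. Lefty1 was found in 25.4% and 71.4%, over 27.3%, and Fst in 7.15% and 58.9%, over 16.5%. Adk was found in 14.0% of reverted and 59.5% of primed cells, over 9.81%. Ldha was found in 60.4% and 95%, but also in 74.9% of the macrophage-like cells, which express it.

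**Figure D3:**
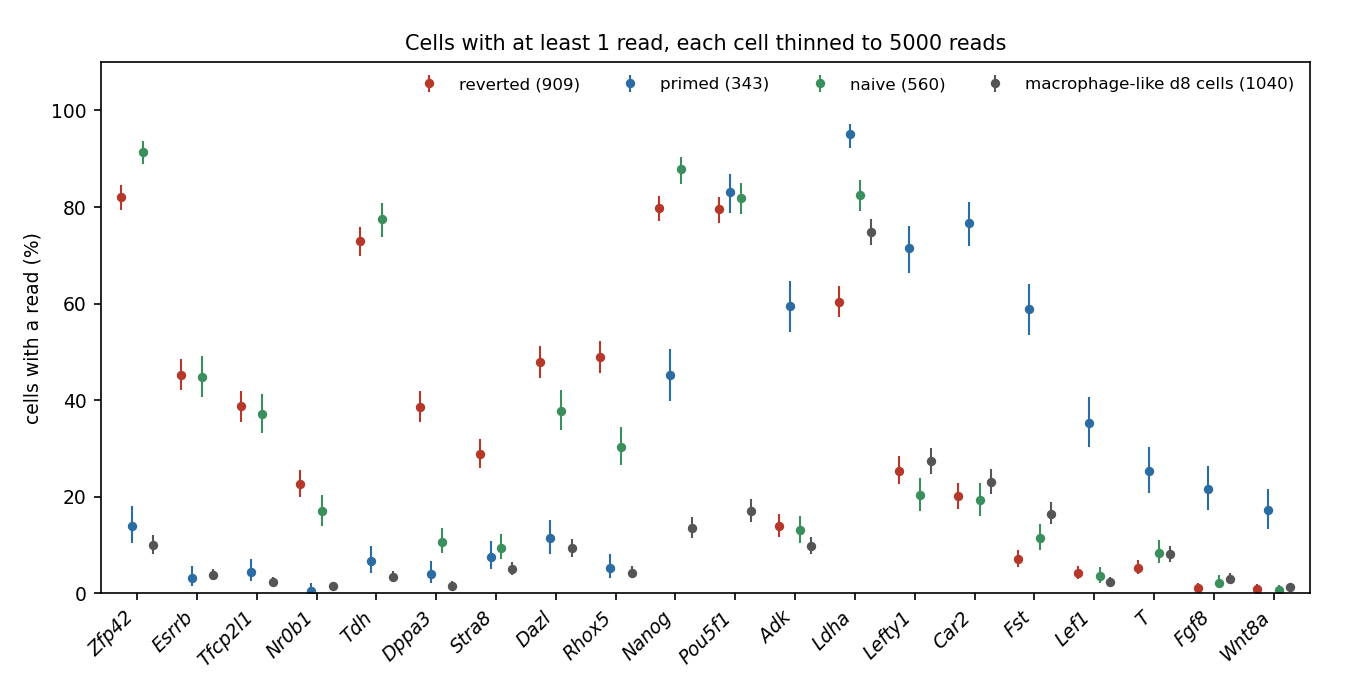
Percent of cells with at least 1 read (y axis) for 20 genes (x axis), after thinning each cell to 5000 reads, in reverted, primed, naive and macrophage-like d8 cells. Points are shares and bars 95% exact binomial intervals. Zfp42 and Tdh are found in over 70% of reverted cells (82.1% and 72.9%), and Wnt8a and Fgf8 in reverted cells lie at the level of the macrophage-like cells.

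Summed over the 15 measured naive genes, a thinned reverted cell had a median of 10 reads, a primed cell 1, a naive cell 12 and a macrophage-like cell 1. Of 909 reverted cells, 33 had no more than 3 reads, the 90th percentile of primed cells. Of the d16+10p cells outside the Dppa5a limit, 107 of 173 had no more than 3, and their median was 3 reads. The Dppa5a limit chose the reverted cells, so their sums do not describe the whole d16+10p culture. Summed over the 19 measured primed genes, the medians were 5 reads in reverted, 11 in primed, 4 in naive and 6 in macrophage-like cells. The 90th percentile of this sum was 28 reads in macrophage-like and 17 in primed cells, so some macrophage-like cells held many such reads. The reverted cells formed 1 peak in the sum of the naive genes, with a 10th percentile of 5 reads and a 90th percentile of 16.

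By chromosome, the lowest median was that of chromosome 3. Its 219 measured genes had a median of -0.148, with 19 at least 2-fold lower. Of its genes, 30 measured protein-coding genes lie in the 1.81 Mb from 94413273 to 96219709 (GRCm38), from Tdrkh to Bola1. The bounds were set after the ratios were seen. Of these 30 genes 29 were below 0 and 8 at least 2-fold lower, with a median of -0.80, against -0.04 over the other 3753 measured genes. In naive cells the 30 genes had a median of -1.23 over the same primed cells. The 6 measured genes in the 2 Mb after the stretch had a median of 0.02, and the 2 in the 2 Mb before it were S100a11 (-0.22) and S100a10 (-1.78).

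The stretch holds genes of unrelated roles. Psmb4, a proteasome subunit, was at 692 CPM in reverted, 1655 in primed and 427 in naive cells (-1.26), and Psmd4, another subunit, at 568, 1167 and 374 CPM (-1.04). Anp32e, a histone chaperone, was at 398, 1089 and 272 CPM (-1.45). Mcl1, which opposes apoptosis, was at 759, 996 and 515 CPM (-0.39), and Setdb1, the H3K9 methyltransferase that acts with KRAB zinc finger proteins, at 146, 219 and 118 CPM (-0.58). The gene above 0 was the protease gene Ctss, at 61.5 against 40.3 CPM (0.60).

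**Figure D4:**
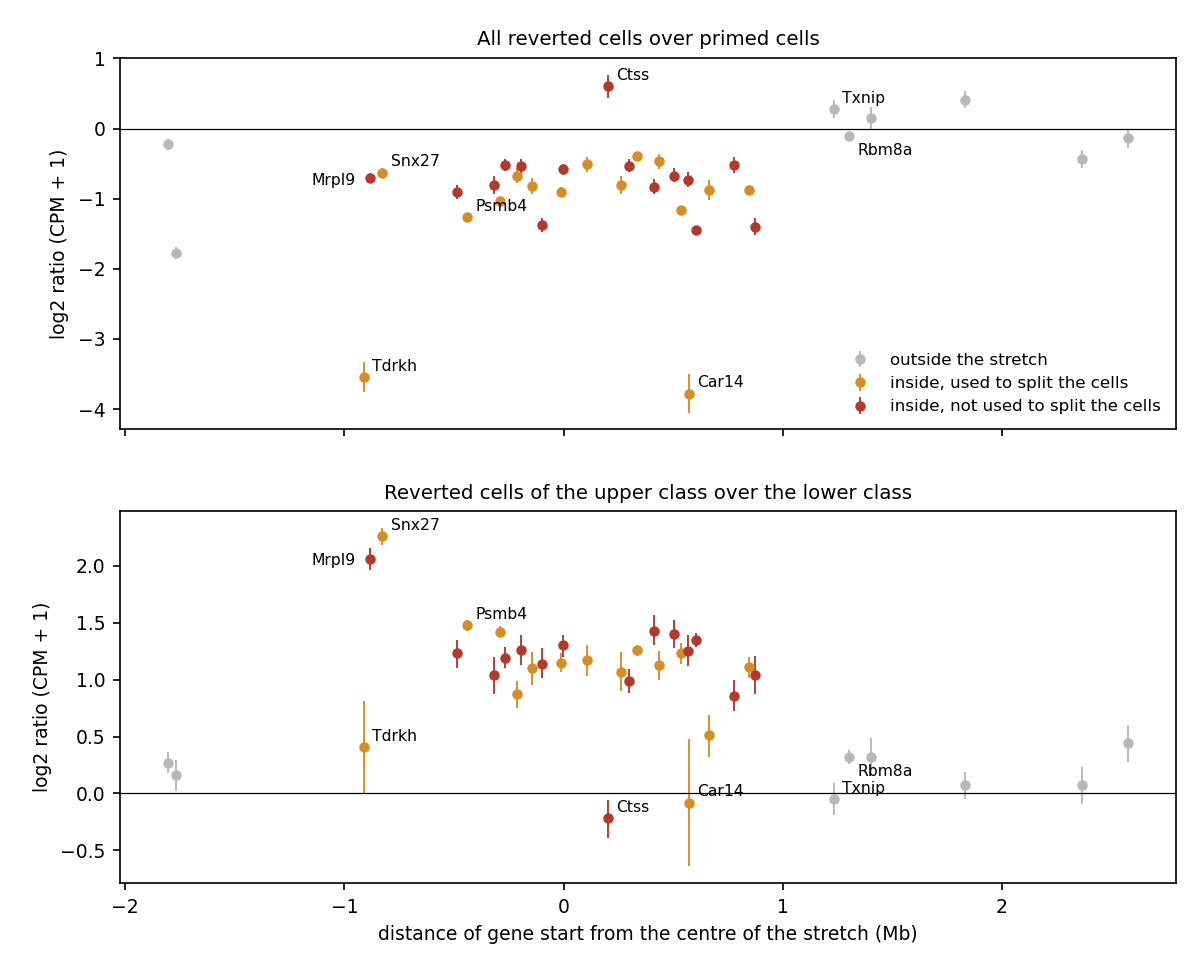
Log2 ratio of CPM + 1 (y axes) for measured genes of chromosome 3 against the distance of the gene start from the centre of the stretch in Mb (x axis), for all reverted over primed cells (top) and for reverted cells of the upper over the lower class (bottom). Points are genes with 95% counting intervals, grey outside the stretch, orange and red inside it. Genes inside lie mostly below 0 in the upper panel and above 0 in the lower panel, with Ctss and Car14 as exceptions in the lower panel, and most genes outside lie near 0 in both.

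Reverted cells were not alike in this stretch. The 30 genes took a median of 9462 reads per 1000000 in a primed cell (10th to 90th percentile 7390 to 11360) and 3184 in a naive cell (2509 to 4695). Reverted cells had a median of 3630 (2527 to 9056) and formed 2 peaks, 1 near the naive and 1 near the primed value. To describe them, every other gene of the stretch, 15 genes, was used to divide the cells at 4096 reads per 1000000, the midpoint between the naive and primed medians of these 15 genes. Of 926 reverted cells 289 lay above (31.2%, 28.2 to 34.3%), with 49 within 10% of the division. Above it also lay 327 of 350 primed cells (93.4%), 25 of 570 naive cells (4.39%) and 488 of 1278 d16 cells (38.2%).

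The 15 genes that were not used for the division followed it. They took a median of 2914 reads per 1000000 in reverted cells above the division (the upper class) and 1080 in those below it (the lower class). Primed cells of the upper class had 3210 and naive cells of the lower class 1166. Over these 15 genes the upper over lower log2 ratio had a median of 1.23, and 12 of 15 were at least 2-fold higher. Against primed cells, their median was 0.01 in the upper class and -1.25 in the lower class. The depth was alike, with medians of 23971 and 24083 reads per cell.

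Snx27, a sorting nexin, was at 615 CPM in the upper and 128 in the lower class (2.26, 2.18 to 2.33), although it was used for the division. Mrpl9, a mitochondrial ribosomal protein gene beside it that was not used, was at 335 and 79.7 CPM (2.06, 1.96 to 2.16). Anp32e, also not used, was at 682 and 267 CPM (1.35). Ctss (-0.22), Car14 (-0.08) and Tdrkh (0.41) did not follow the others, and Tdrkh and Car14 were low in both classes. In d16 cells, divided in the same way, the median over the 15 genes was 1.03.

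Outside the stretch the classes were close for most genes. Over the other 3753 measured genes the median upper over lower ratio was 0.00, with 2 genes at least 2-fold higher and 1 at least 2-fold lower in the upper class. These were Dppa3, at 260 against 95.6 CPM (1.43, 1.34 to 1.53), the keratin Krt18, at 372 against 163 CPM (1.18), and the brain fatty acid binding protein Fabp7, at 17.5 against 44.3 CPM (-1.29). Ldhb was at 436 against 234 CPM (0.89), Tubb3 at 163 against 92.9 CPM (0.81) and the glutathione transferase Gstp1 at 141 against 247 CPM (-0.80). Dppa3 was also higher in the upper class of d16 cells, at 178 against 79.6 CPM. Medians by chromosome, without the stretch, reached -0.100 over 218 genes of chromosome 8 and 0.072 over 189 genes of chromosome 3. The other chromosomes lay between -0.031 (chromosome 15) and 0.021 (chromosome 2).

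The Y-linked gene Ddx3y was at 5.19 CPM in the upper class, 5.27 in the lower class, 4.99 in primed cells and 68.3 in naive cells. The lower class was thus not at the naive level for this gene. Among all d8 cells, 65.8% lay above the division, and among the 225 d16+10p cells outside the Dppa5a limit 81.3% did. Copy number was not measured, and the classes are ranges of a share and not cell types.

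**Figure D5:**
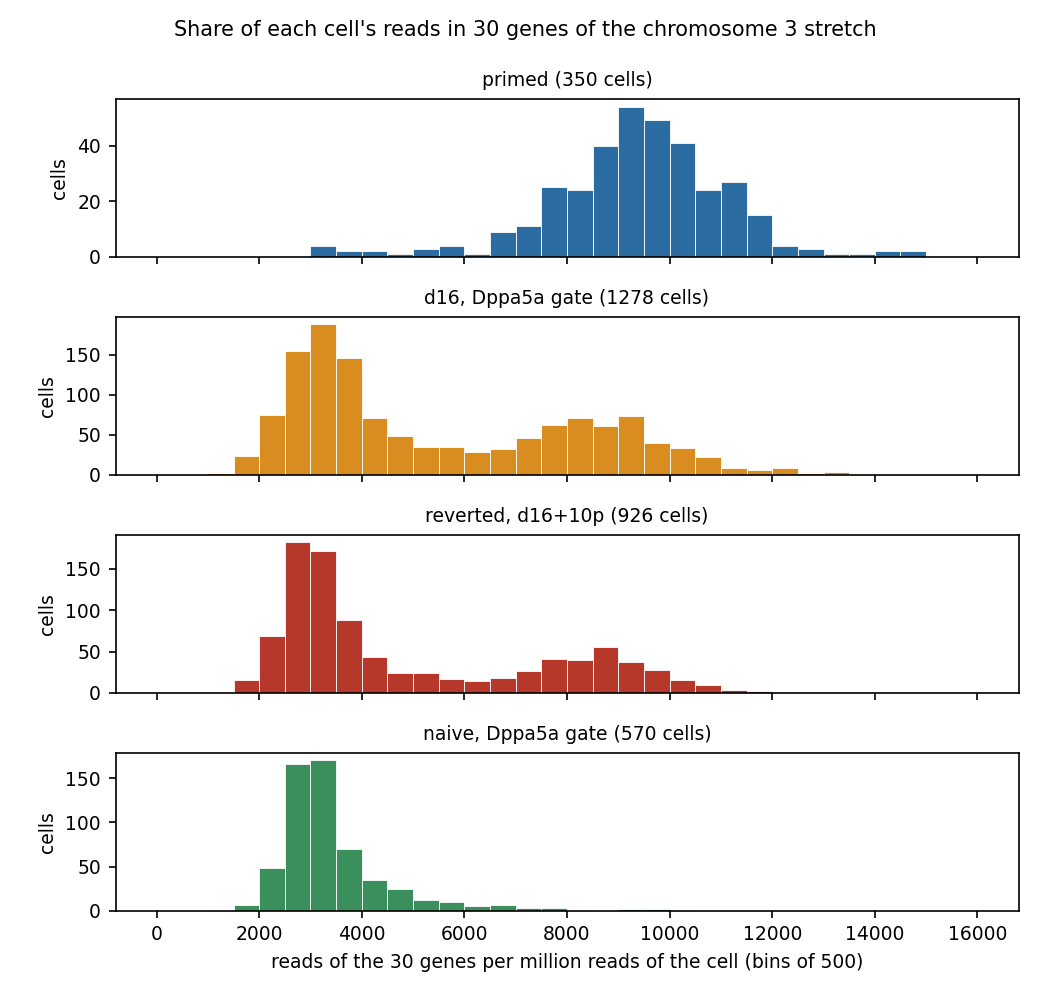
Number of cells (y axis) by the share of a cell's reads in the 30 genes of the chromosome 3 stretch, in reads per 1000000 (x axis, bins of 500), for primed, d16, reverted and naive cells. Primed cells form 1 peak around a median of 9462 and naive cells 1 around 3184, and reverted and d16 cells show both.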

How the data were processed

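Single-cell RNA-seq was performed on 5 tagged populations in 1 pooled library, captured on BD Rhapsody and amplified by TAS-Seq. The deposited values are raw counts of reads per gene symbol and cell, without a described step that collapses molecular identifiers, so they are reads and not molecules, and intervals cover counting error only. Per the methods and the processing notes, the authors trimmed reads with cutadapt 2.10, mapped them with Bowtie2 2.3.4.1 to Ensembl transcripts of GRCm38, removed barcodes below the knee plot inflection and cells with ambiguous tags as doublets. No doublet caller was run here. Strand use in counting is not given in the sources used here.

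The population of a cell was taken from the tag in its column name. Members, gene lists and tests were chosen with earlier results of these data known. Reads were summed per group and scaled to CPM. Ratios used a pseudocount of 1 CPM, and genes needed 50 CPM in either group and 100 reads. Intervals are 95% exact Poisson (levels), exact Clopper-Pearson (shares) or derived from the exact binomial (ratios), and were tested on simulated data. No test between groups was possible. Named genes are the 15 largest ratios in each direction, without the genes that chose the cells and mitochondrial genes, up to 6 per list, and Pou5f1, Sox2, Nanog, Xist, Cd9 and Cd63. Other genes were named after their values were seen. Of 130 genes named by the rule, 97 matched a RefSeq start window. Gene positions were looked up by symbol in GENCODE M21 (GRCm38). Python 3.11.15, scipy 1.17.1 and edgeR 4.0.16 (TMM factors as an alternative) were used. Alternatives were the limits that chose the cells, the pseudocount, the filter, scaling, mean of CPM per cell, a range of detected genes and thinning. Reads of near-identical gene copies may be counted under either copy.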

Additional observations from a re-analysis of the deposited data

How the results depend on the processing

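The results were recomputed under 11 alternatives fixed at the start and 3 chosen after seeing the data (only the upper class of the chromosome 3 division, only the lower class, and without the genes of the stretch). Of 84 summary values, 71 stayed within 1.5 times the count or within the counting interval of the median, 13 did not, and 0 changed sign. With a filter of 10 CPM, 10124 genes were measured, and 730 were at least 2-fold higher and 371 lower. The median of the primed list was -1.71 with a Dppa5a limit of 2000 CPM, -1.63 with 250 primed cells, -1.69 with 450 primed cells, -1.44 with a pseudocount of 10 CPM, -1.41 in the upper class and -1.64 in the lower class. The median of the germ line list was 2.53 with 450 primed cells, 3.29 without the 8 primed cells at or above the Dppa5a limit, 2.42 with a pseudocount of 10 CPM and 3.13 in the upper class. The median of the naive list was 2.47 with a pseudocount of 10 CPM. TMM scaling shifted all ratios by 0.03. Of 80 named genes past 2-fold, none changed sign under these alternatives, and Klf4, Phgdh, Mdm4, H2-Q4, Amt and Pfkl were under 2-fold in at least 1 of them. Of the named genes under 2-fold, Igf2bp1, Rlim, Celf1 and Krt18 changed sign under some alternatives. No paired analysis was possible because each population was 1 sample. Depth limits single genes in single cells, where 1 read of a thinned cell corresponds to 200 CPM.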

Other observations

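The gene groups below were chosen after their values were seen. Of all 3783 measured genes, 6.45% were at least 2-fold higher and 3.49% at least 2-fold lower, and 1715 were above 0. The metallothioneins, small proteins that bind zinc and copper, were among the largest differences at high level. Mt1 was at 1611 CPM in reverted cells, 185 in primed, 1325 in naive and 533 in d16 cells (log2 reverted over primed 3.12, 3.04 to 3.19), and Mt2 was at 1925, 154, 1632 and 526 CPM in the same order (3.64, 3.56 to 3.72). After thinning, Mt2 was found in 98.8% of reverted and 44.9% of primed cells, and in 84.3% of macrophage-like d8 cells, so its reads were not particular to pluripotent cells. The oxidoreductase gene Nqo1 was at 87.1 CPM in reverted, 5.44 in primed, 82.1 in naive and 12 in d16 cells (3.77), so that d16 lay between primed and reverted cells. Gstp1 and Gstp2, which are similar enough in sequence that they may share reads, were at 214 against 38.7 CPM (2.44) and 114 against 18.3 CPM (2.58).

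Genes of sterol synthesis were mostly lower. Of 14 measured genes 12 were below 0, 6 at least 2-fold lower and 1 at least 2-fold higher, with a median of -0.93. Hmgcs1, which starts the mevalonate pathway, was at 184 CPM in reverted, 417 in primed and 180 in naive cells (-1.17). The gene that was higher was Insig1, a brake on this pathway, at 94.5 against 45.9 CPM (1.03). Of 8 measured genes of Polycomb repressive complex 2 and its cofactors, 4 were at least 2-fold higher. The core subunits Eed and Suz12 were at 135 against 63.8 CPM (1.07) and 215 against 102 CPM (1.07), and the cofactors Mtf2 and Epop at 396 against 139 CPM (1.51) and 200 against 51.0 CPM (1.95), while the catalytic subunit Ezh2 was at 247 against 258 CPM (-0.06). Among 9 measured genes of purine synthesis and salvage, Adk was the only one at least 2-fold apart, as were 9.94% of all measured genes. Of the 9 genes 7 were below 0, with a median of -0.25, against -0.04 over all measured genes.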
